A study of Mus musculus with 61 samples.

Results

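The comparison asked what changed in cells of mouse pancreatic duct organoids when Ngn3 was expressed in addition to MafA. It used 11 of the 32 samples of the series (19 of 61 libraries), chosen by the reporter combination in their labels and not by any measured value. Organoids of C57BL/6 ductal cells were infected at the same time with separate doxycycline-inducible vectors, GFP-tagged for Ngn3, LSS-Orange for Pdx1 and tdTomato for MafA, together with a vector for the transactivator. After 8 days of transgene induction the cells were sorted by colour into pools of 50 cells, and each pool gave a library. The Ngn3+MafA cells were positive for GFP and tdTomato, with 3 samples from cultures given wild-type Ngn3 (WT) and 3 from cultures given 6SA Ngn3, a phospho-mutant form in which serines are replaced by alanine. The MafA cells were positive for tdTomato alone and came from the same kinds of culture, with 2 samples from WT and 3 from 6SA cultures, and these cells showed no reporter of Ngn3. Replicates 1 and 2 of each group were taken at passage 2 and replicate 3 at passage 5, and WT MafA had no sample at passage 5. All 11 samples therefore shared the strain, the doxycycline, the lentiviral infection and the MafA vector, and the groups compared differed in the Ngn3 reporter. A pool held a mixture of cells with unknown vector copy numbers, the reporter stood in for the factor, and neither cells without any vector nor cells with Ngn3 alone were analysed here. The labels call the samples biological replicates without saying whether they came from separate animals, so p-values measure the spread between these samples.

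Ngn3 (gene Neurog3) is a basic helix-loop-helix factor that starts the endocrine programme in the embryonic pancreatic duct, where it switches on Neurod1, Insm1 and other factors that carry the cells on towards hormone production. MafA is a basic leucine zipper factor of mature β-cells and a direct activator of insulin and of genes for glucose-stimulated secretion. Adult duct cells express Sox9, keratins and bicarbonate transporters, and they lack the dense-core granules in which endocrine cells process and store peptide hormones.

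Library totals ranged from 1403177 to 7682665 counts on genes in the 10 Ngn3+MafA libraries and from 1373561 to 6595621 in the 9 MafA libraries. After technical repeats were summed, samples held 6281600 to 15269107 and 3339874 to 18286434 counts. Levels are given as CPM, the TMM-scaled counts of a library set to a common total. In these units 3 counts corresponded on average to 0.34 CPM in an Ngn3+MafA sample and 0.539 CPM in a MafA sample. These limits cover counting error only. The cells carried duct markers, among them Sox9 (50.5 to 257 CPM), Epcam (133 to 2359 CPM) and Krt7 (655 to 1838 CPM) in all 11 samples. Markers of other cells were low. The acinar markers summed to 2.22 to 20.6 CPM in the Ngn3+MafA and 0.617 to 17.1 CPM in the MafA samples, with 4 of them at 0 in all samples, and of the 5 tested only the elastase Cela1 was lower in the Ngn3+MafA samples (adjusted p = 0.00731), a call lost without WT MafA replicate 1 (adjusted p = 0.109) and with passage 2 samples alone (0.052). Summed immune markers were at most 11.7 CPM and endothelial markers at most 3.97 CPM, with Ptprc and Adgre1 at 0 in all samples. Stromal markers summed to at most 14.8 CPM in the MafA samples but reached 312 CPM in WT Ngn3+MafA replicate 1, where the collagen gene Col1a2 was at 188 CPM. In that sample Col1a2 had 1 count in the first technical repeat and 2325 in the second. No stromal, immune or endothelial marker was called, Col1a2 with an adjusted p of 0.155 (0.00479 with the replicate block and 8.66e-07 to 1 over the alternatives), but 1 of the 3 immune markers tested was called lower with the block (0.0416, beside 0.0537 without it and 0.00721 to 0.479 over the alternatives). Their part in the results was not tested.

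Neurog3 separated the groups, which were sorted by the reporter of its vector, so its test is not a result about the endogenous gene. It was at 53.6, 212 and 32.7 CPM in the WT and 133, 62.6 and 24.9 CPM in the 6SA Ngn3+MafA samples, in the order of replicates 1, 2 and 3, and at 0.107 and 0 CPM in the WT and 0.461, 0.324 and 0 CPM in the 6SA MafA samples (chr10:62133090-62134763 in GRCm38; log2 fold change 8.93 ± 1.10 SE, adjusted p = 1.04e-05). Every Ngn3+MafA sample lay above every MafA sample, and in both cultures the replicate at passage 5 was the lowest. Mafa (chr15:75745490-75748228) had few reads even in sorted cells, at 1.45, 4.70 and 2.42 CPM and 0.978, 7.79 and 0.306 CPM in the WT and 6SA Ngn3+MafA samples against 0.107 and 0.925 CPM and 0.346, 1.13 and 3.16 CPM in the MafA samples, which overlapped (adjusted p = 0.481). It was nevertheless at most 0.116 CPM in all samples of the series sorted without the MafA reporter. For Neurog3 and Mafa alike, whether reads came from the vector or from the endogenous gene cannot be told from counts per gene. Pdx1 (chr5:147269959-147275848), for which these cells carried no reporter, was at 3.21 to 30.6 CPM with Ngn3 and 4.22 to 19.3 CPM without (adjusted p = 1).

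With Ngn3 beside MafA, most genes of hormone-processing granules, ghrelin and part of the endocrine transcription factors were higher, while part of the duct genes and of the antimicrobial genes of the epithelium were lower. Of 24004 genes tested over both cultures together, 1121 were called at an adjusted p under 0.05 (4.67%), 600 higher (2.5%) and 521 lower (2.17%) in the Ngn3+MafA samples, and the replicate number as a block raised these to 1228 higher (5.12%) and 895 lower (3.73%). The called genes that were higher had a median log2 fold change of 5.23 and those that were lower one of -2.49, beside 0.03 for all genes tested. In what follows a bare value in parentheses after an adjusted p is an adjusted p of the same test. The 32 gene lists described below held 432 genes, of which 402 had enough counts to be tested. These lists were chosen with earlier results of these data known, so their shares of calls are descriptions and not tests. Among the genes called higher, 96 had 0 counts in all 5 MafA samples, and 23 of those called lower had 0 counts in all 6 Ngn3+MafA samples. The 6 Ngn3+MafA samples did not overlap the 5 MafA samples in 378 of the genes called higher and 311 of those called lower, while over all genes tested the same held for 2.14% and 2.03%. The count of calls fell to 515 without WT MafA replicate 1 and to 620 without WT MafA replicate 2, the only samples of that group.

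The 12 genes higher with the lowest adjusted p and no overlap between groups were Scg3, Resp18, Neurod1, Ptprn2, Pcsk1, Nxph1, Rfx6, Chgb, Nefm, Scg2, Scgn and Ghrl, of which 7 belong to the granule list described below and 2 are transcription factors. Scg3, a granin that sorts cargo into secretory granules, averaged 259.7 ± 169 CPM (SD, n = 6) against 0.244 ± 0.239 CPM (SD, n = 5), with a log2 fold change 10.12 ± 0.91 SE, adjusted p = 2.47e-07. Outside the lists, the synaptic ligand Nxph1 averaged 81.3 against 0.0879 CPM (log2 fold change 10.79 ± 1.09 SE, adjusted p = 2.09e-06) and the neurofilament gene Nefm 164 against 0.227 CPM (log2 fold change 9.43 ± 1.05 SE, adjusted p = 3.32e-06). The 12 genes lower were Dram1, Akap12, Lmo7, Cldn8, Slco2a1, Csf3, Ugt2b34, Cd14, Il1rn, Car2, Gsap and Ehf. Dram1, a lysosomal regulator of autophagy, averaged 24.6 ± 16.1 CPM (SD, n = 6) against 280.1 ± 145 CPM (SD, n = 5), with a log2 fold change -3.80 ± 0.46 SE, adjusted p = 8.54e-06. The tight junction gene Cldn8 averaged 2.05 against 49.3 CPM (adjusted p = 1.18e-05), the prostaglandin transporter Slco2a1 8.84 against 145 CPM (1.5e-05), the lipopolysaccharide co-receptor Cd14 67.4 against 787 CPM (2.45e-05) and the granulocyte growth factor Csf3 12.6 against 191 CPM (1.64e-05). The glucuronosyltransferase Ugt2b34 averaged 1.04 against 93.7 CPM (2.21e-05), the kinase anchor Akap12 8.47 against 137 CPM (8.54e-06), the LIM domain gene Lmo7 12.6 against 81.1 CPM (1.14e-05) and Gsap 35.6 against 147.5 CPM (3.72e-05). All 24 calls were kept in each of the 11 fits that left out a sample.

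**Figure D1:**
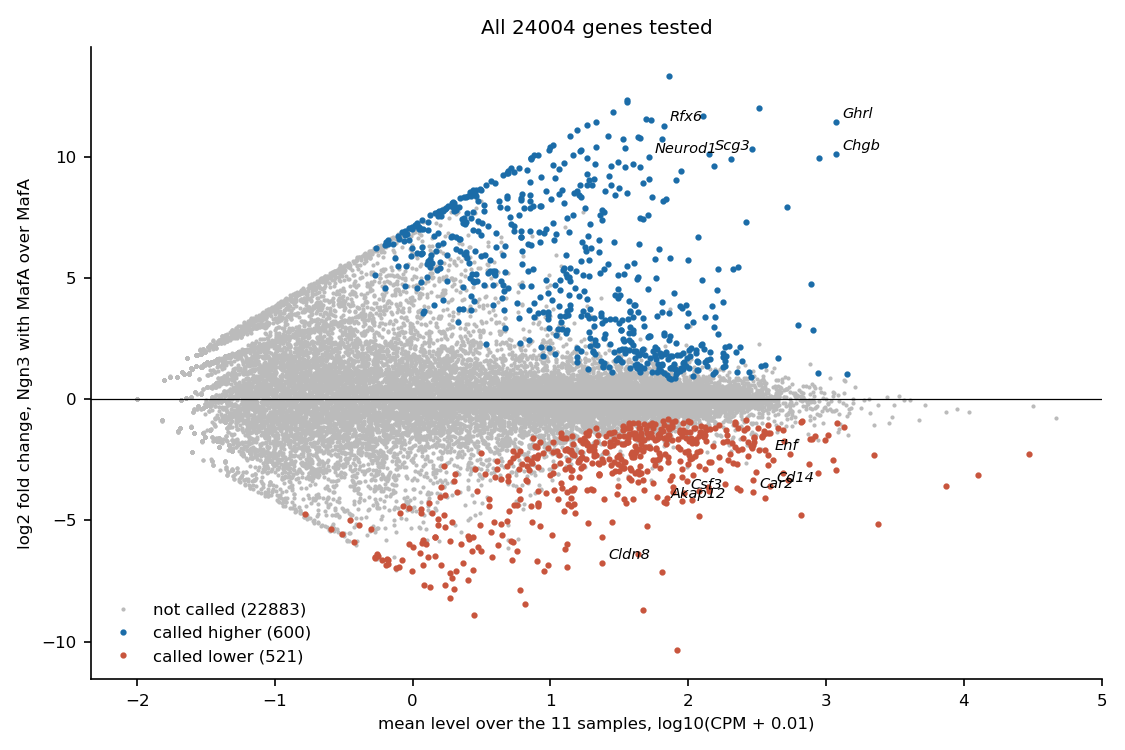
Each point is a gene tested, with its mean level over the 11 samples on the x axis, as log10(CPM + 0.01), and its log2 fold change in the Ngn3+MafA over the MafA samples on the y axis. Blue points are the 600 genes called higher and red points the 521 called lower, and the blue points reach larger fold changes than the red points, with medians of 5.23 and -2.49.

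Ghrelin rose, and was high in every sample with Ngn3. Somatostatin and glucagon also passed the test but were high in some samples only, and neither insulin gene had a count. Of the 7 islet hormone genes, 3 were called higher and none lower, and together they summed to 604.5 to 9139 CPM in the Ngn3+MafA samples and 1.32 to 8.36 CPM in the MafA samples.

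Ghrl, which encodes the appetite hormone of ε-cells and of the stomach (chr6:113716119-113719880), was at 2383, 2482 and 1168 CPM in the WT and 1406, 4934 and 597 CPM in the 6SA Ngn3+MafA samples, against 0.964 and 0 CPM and 1.27, 0.810 and 0.527 CPM in the MafA samples. The groups were far apart, with the lowest samples again those at passage 5 (log2 fold change 11.42 ± 1.35 SE, adjusted p = 7.07e-06). Sst, the hormone of δ-cells (chr16:23889573-23890958), was at 1351, 6.13 and 4.54 CPM in the WT and 650.5, 3718 and 6.42 CPM in the 6SA Ngn3+MafA samples, against 7.18 and 2.16 CPM and 4.15, 1.46 and 0.791 CPM. It was thus high in 3 of the 6 Ngn3+MafA samples, all at passage 2, and the other 3 lay within the range of the MafA samples (log2 fold change 7.91 ± 1.79 SE, adjusted p = 0.00682). This call was lost without WT MafA replicate 1 or 2 (adjusted p = 0.0951 and 0.108).

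Gcg, the glucagon gene of α-cells (chr2:62474530-62483650), was at 0, 0 and 359 CPM in the WT and 0, 443 and 1.07 CPM in the 6SA Ngn3+MafA samples and had 0 counts in all 5 MafA samples. Only WT replicate 3 and 6SA replicate 2 were high, so the mean was at least 248-fold higher than the level of 3 counts per MafA sample (adjusted p = 0.0145). In 6SA replicate 2 the first technical repeat held all 4269 counts and the second held 0, and in WT replicate 3 there was 1 library with 2374 counts. The second repeat held 1403177 counts on genes in all. The Gcg call was lost without 6SA Ngn3+MafA replicate 2, WT MafA replicate 1 or 2 or WT Ngn3+MafA replicate 3 (adjusted p = 0.0582 to 1), and with passage 2 samples alone (1).

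Ins1 and Ins2 were at 0 in all 11 samples. Iapp, the amyloid peptide that β-cells release with insulin, was at 76.6, 0.261 and 0.151 CPM in the WT and 19.6, 31.9 and 0.153 CPM in the 6SA Ngn3+MafA samples against 0 to 1.04 CPM without Ngn3, and did not pass the test (adjusted p = 0.0611, or 0.0111 with the replicate block and 1.04e-28 to 0.784 over the alternatives). Its 3 high samples were the 3 with high Sst. Ppy, the pancreatic polypeptide gene, reached 11.2 CPM in 6SA replicate 2 and at most 0.324 CPM elsewhere (adjusted p = 0.626).

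**Figure D2:**
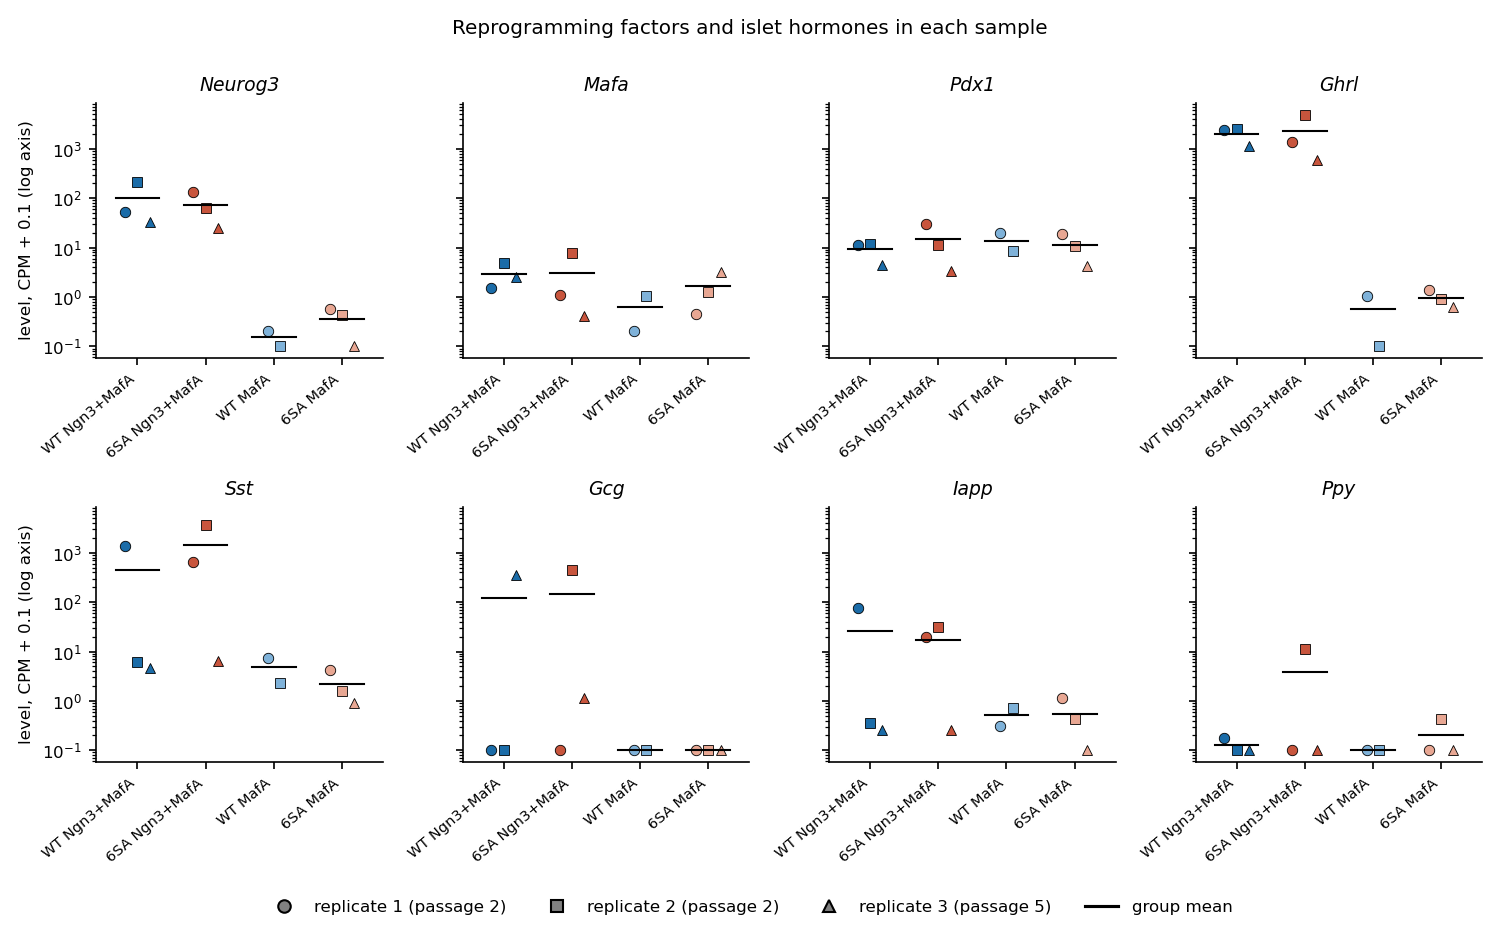
The level of each gene in each of the 11 samples is drawn as CPM + 0.1 on a log axis, with the replicate as the symbol and the group mean as the line. Neurog3 and Ghrl are high in all 6 Ngn3+MafA samples, Sst and Iapp in 3 of them and Gcg in 2, while Mafa and Pdx1 overlap between groups.

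The other members of the ε-cell list rose with Ghrl, so all 3 of its genes were called. Mboat4, the acyltransferase that octanoylates ghrelin, was at 35.7, 62.1 and 1.66 CPM in the WT and 33.1, 47.1 and 2.14 CPM in the 6SA Ngn3+MafA samples, with a single count in the MafA samples. This was a 1307-fold ratio of pooled CPM with a 95% counting interval of 234 to 51642 (adjusted p = 0.000258). Etv1, an ETS factor, was at 7.87 to 115 CPM against 1.05 to 7.09 CPM (adjusted p = 0.00107). All 3 calls were kept with any sample left out.

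Of 14 gut hormone and neuropeptide genes tested, 4 were called higher and none lower, or 5 with the replicate block, and their median log2 fold change was 2.58. Cartpt, a neuropeptide of islet and enteric cells, was at 11.3, 1.96 and 0.756 CPM in the WT and 247, 44.5 and 17.0 CPM in the 6SA Ngn3+MafA samples and at most 0.107 CPM without Ngn3 (adjusted p = 0.000301), and was the only member kept with every sample left out. Gal, which encodes galanin, was at 125, 101 and 45.7 CPM and 1791, 792 and 13.9 CPM against 0 to 2.68 CPM (log2 fold change 7.30 ± 1.46 SE, adjusted p = 0.00227) and was lost without WT MafA replicate 1 or 2 (adjusted p = 0.0589 and 0.0503). For both genes replicates 1 and 2 of the 6SA group lay above all WT samples, but the difference between cultures did not pass the test (adjusted p = 1 for each). Pyy, the peptide YY of colonic and early islet endocrine cells, was at 0 to 272 CPM against at most 0.264 CPM and was at 0 in both passage 5 samples (adjusted p = 0.0217), and was lost without WT MafA replicate 1 or 2 (adjusted p = 0.184 and 0.153). Cck, cholecystokinin, was at 0 to 24.8 CPM against 0, which is at least 20.1-fold higher (adjusted p = 0.0492), and its call was lost when any 1 of 9 of the 11 samples was left out (adjusted p = 0.0607 to 0.256), with the newer method of edgeR (0.109) and with the first technical repeat alone (0.165). The fifth with the block was Pomc, the precursor of melanocortins and endorphin, at 1.29 to 4.67 CPM against 0 to 0.643 CPM (adjusted p = 0.0659, 0.0344 with the block and 0.00453 to 0.278 over the alternatives).

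The endocrine transcription factor network downstream of Ngn3 rose in large part. Of 29 factors tested, 15 were called higher and none lower (17 and 1 with the replicate block), beside 2.5% and 2.17% of all genes, with a median log2 fold change of 5.58, or 4.17 with the 3 members without counts in the MafA samples set to the bound of 3 counts per sample. Neurod1, a direct target of Ngn3 that maintains endocrine differentiation, was at 73.6, 109.9 and 22.1 CPM in the WT and 169.5, 170.2 and 22.2 CPM in the 6SA Ngn3+MafA samples, with 3 counts in all MafA samples together. This was a 1451-fold ratio of pooled CPM with a 95% counting interval of 496 to 7036.5 (adjusted p = 6.67e-07). Insm1, a zinc finger repressor of non-endocrine genes, was at 48.9, 71.0 and 26.3 CPM and 100.1, 123 and 22.2 CPM against 0 to 0.925 CPM (log2 fold change 8.51 ± 1.13 SE, adjusted p = 2.45e-05). Rfx6, required for islet cell formation, was at 94.6, 158 and 25 CPM and 161, 266 and 26.1 CPM against 0 to 0.288 CPM (log2 fold change 11.29 ± 1.21 SE, adjusted p = 2.41e-06). In Neurod1, Insm1 and Rfx6 alike the passage 5 samples were the lowest of their culture and still above all MafA samples.

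Factors that act in several islet lineages followed. Nkx2-2, needed for α- and β-cells, was at 4.13 to 22.7 CPM against 0 to 0.162 CPM (adjusted p = 8.58e-05). Isl1, a LIM homeobox factor of all islet cell types, was at 8.17 to 144 CPM against 0 to 0.231 CPM (1.04e-05). Pax6, an activator of islet hormone genes, was at 1.83 to 90.7 CPM against 0 to 1.85 CPM (0.00094). Myt1 and St18, zinc finger factors of endocrine progenitors, were at 5.29 to 56.8 CPM against 0 to 0.324 CPM (0.000141) and 7.95 to 134 CPM against 0 to 0.107 CPM (8.54e-06). The co-repressors Runx1t1 and Cbfa2t3 were at 2.60 to 105 CPM against 0 (2.09e-05) and at 23.6 to 87.4 CPM against 0 to 1.15 CPM (2.45e-05). Pax4, which favours β- and δ-cells, was at 0.323, 8.48 and 0 CPM in the WT and 10.6, 6.23 and 0 CPM in the 6SA Ngn3+MafA samples against 0 to 0.107 CPM (adjusted p = 0.0135), with 0 counts in both passage 5 samples, and was lost without WT MafA replicate 1 or 2 or WT Ngn3+MafA replicate 2 (adjusted p = 0.119, 0.102 and 0.117) and with the newer quasi-likelihood method of edgeR (0.0844). Fev and Lmx1b, factors of serotonin-producing cells, were at 0.151 to 32.5 CPM against 0 to 1.58 CPM (0.0133) and 0.306 to 16.8 CPM against 0 (0.0147). Fev was lost without WT MafA replicate 1 or 2 (adjusted p = 0.149 and 0.0945), and Lmx1b without WT MafA replicate 1 or 2 (adjusted p = 0.133 and 0.0899).

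Factors of maturing β-cells were not among the calls. Nkx6-1, which β-cells need, was at 0 to 1.65 CPM against 0 to 3.16 CPM (adjusted p = 1). Mnx1 was at most 0.153 CPM. Hhex, a homeobox factor of δ-cells that duct cells also express, was at 37.4 to 95.9 CPM against 104 to 387 CPM, without overlap, and did not pass the test (adjusted p = 0.0576, or 0.000538 with the replicate block and 6.53e-07 to 0.315 over the alternatives). Neurod2 and Cbfa2t2 were the 2 members called higher only with the block, with adjusted p of 0.00126 and 0.0162 beside 0.074 and 0.377 without it, and 0.000102 to 0.291 and 0.0162 to 0.659 over the alternatives.

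Basic helix-loop-helix factors such as Ngn3 and Neurod1 bind E-boxes (CANNTG), so the letters around the transcription start of some called genes are shown. The windows run from 250 bases before to 50 bases after the start, with sequence and start from RefSeq (GRCm38.p6, 300 bases, all on the minus strand), and capitals mark CAGATG or its reverse complement CATCTG. Ghrl holds 2 matches in 1 of its 4 windows (chr6:113719405-113719704), at positions 2 and 42 from the start. Gcg holds 2 matches (chr2:62483604-62483903), at positions -139 and -83, and Nkx2-2 holds 1 (chr2:147186353-147186652), at -220, while the window of Neurod1 (chr2:79456587-79456886) holds none. These 4 windows were chosen after the matches were seen.
Ghrl: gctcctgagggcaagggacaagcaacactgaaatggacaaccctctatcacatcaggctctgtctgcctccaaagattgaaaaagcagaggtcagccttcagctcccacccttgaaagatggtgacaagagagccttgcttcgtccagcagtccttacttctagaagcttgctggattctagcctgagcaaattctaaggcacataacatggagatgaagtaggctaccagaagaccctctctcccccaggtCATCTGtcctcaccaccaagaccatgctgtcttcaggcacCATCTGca
Gcg: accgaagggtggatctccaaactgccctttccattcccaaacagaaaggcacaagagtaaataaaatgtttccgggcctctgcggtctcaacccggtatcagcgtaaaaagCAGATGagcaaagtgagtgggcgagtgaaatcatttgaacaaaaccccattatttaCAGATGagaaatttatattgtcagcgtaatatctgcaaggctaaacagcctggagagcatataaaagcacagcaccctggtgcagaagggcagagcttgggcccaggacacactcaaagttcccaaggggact
Nkx2-2: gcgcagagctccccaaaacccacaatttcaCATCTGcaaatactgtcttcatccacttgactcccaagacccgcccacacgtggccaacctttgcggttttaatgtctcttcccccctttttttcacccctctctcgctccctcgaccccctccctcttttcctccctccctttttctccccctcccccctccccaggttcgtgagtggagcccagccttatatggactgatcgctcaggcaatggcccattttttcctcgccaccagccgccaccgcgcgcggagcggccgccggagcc
Neurod1: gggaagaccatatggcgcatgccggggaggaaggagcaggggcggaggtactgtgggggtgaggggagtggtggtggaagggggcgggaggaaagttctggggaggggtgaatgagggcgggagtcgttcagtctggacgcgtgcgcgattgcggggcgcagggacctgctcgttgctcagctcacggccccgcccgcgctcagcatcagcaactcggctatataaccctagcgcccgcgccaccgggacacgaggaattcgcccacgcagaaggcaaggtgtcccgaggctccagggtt

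Over all genes called higher with a window (428), 20.3% held CAGATG on either strand in at least 1 window, beside 17.8% of the 366 genes called lower and 14.8% of the 13440 genes tested that had a window. For the palindrome CAGCTG, another E-box, the shares were 25.7%, 19.1% and 18.8%. Of all 32851 windows, 17.2% held CAGATG and 16.3% CAGCTG. A match is a match of letters only and was not tested for binding.

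Nearly the whole machinery of dense-core granules and prohormone processing rose. Of 15 genes tested, 13 were called higher, 12 of them with every sample left out, and the group had a median log2 fold change of 9.57. The list summed to 1392 to 17230 CPM in the Ngn3+MafA samples and 123 to 253 CPM in the MafA samples. The granins Chga and Chgb, which drive granule formation, were at 2128, 491 and 168 CPM and 1361, 1079 and 85.6 CPM in the WT and at 5116, 1664 and 215 CPM and 7227, 2736 and 456 CPM in the 6SA Ngn3+MafA samples. Without Ngn3 they were at 0 to 2.88 CPM and 0.308 to 2.79 CPM (adjusted p = 3.59e-05 and 3.32e-06). For both genes 6SA replicate 1 was the highest and the passage 5 samples were the lowest.

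The prohormone convertases rose together. Pcsk1, which cuts proinsulin and other precursors, was at 276, 444.5 and 63.2 CPM in the WT and 457, 407 and 50.7 CPM in the 6SA Ngn3+MafA samples against 0 to 1.29 CPM (log2 fold change 9.63 ± 1.01 SE, adjusted p = 1.5e-06). Pcsk2, which releases glucagon from its precursor, was at 382, 309 and 63.8 CPM and 835, 615 and 25.5 CPM against 0 to 0.925 CPM (log2 fold change 9.92 ± 1.18 SE, adjusted p = 7.19e-06). The exopeptidase Cpe, which trims the cut peptides, was already present without Ngn3, at 359 to 2595 CPM against 16.8 to 99.5 CPM (log2 fold change 4.77 ± 0.64 SE, adjusted p = 2.83e-05). The Pcsk2 chaperone Scg5 was at 29.3 to 481 CPM against 0 to 6.48 CPM (adjusted p = 0.00045). The Pcsk1 inhibitor Pcsk1n was at 5.0 to 151 CPM against 0 to 0.0576 CPM (0.000144). The calcium sensor Scgn was at 29.5 to 287 CPM against 0 to 0.750 CPM (5.4e-06). The granin Scg2 was at 7.79 to 247 CPM against 0 to 0.576 CPM (4.78e-06). Resp18, a neuroendocrine granule protein, was at 18.2 to 136 CPM against 0 to 0.321 CPM (6.67e-07). The granule phosphatase Ptprn2 was at 9.02 to 99.4 CPM against 0 to 0.107 CPM (1.36e-06). Its relative Ptprn was at 67.5 to 425 CPM against 6.64 to 25.9 CPM (0.00635) and was lost without WT MafA replicate 1 or 2 (adjusted p = 0.0954 and 0.0731). The members not called were the amidating enzyme Pam, at 62.8 to 213 CPM against 61.4 to 138 CPM (adjusted p = 0.617), and Vgf, at 0.151 to 3.74 CPM against 0 to 0.107 CPM (0.0568, or 0.00668 with the block and 0.00668 to 0.256 over the alternatives). Slc30a8, the zinc transporter of insulin granules, was not tested, with at most 0.489 CPM in any of the 11 samples.

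Genes for regulated exocytosis and for excitability rose in part. Of 23 exocytosis genes, 11 were called higher and none lower (17 with the replicate block), with a median log2 fold change of 3.33, or 3.18 with the 1 member without counts in the MafA samples set to the bound of 3 counts per sample, and 6 of the 11 were kept with every sample left out. The SNARE gene Snap25 was at 79.3, 13.2 and 17.6 CPM in the WT and 123, 73.3 and 3.21 CPM in the 6SA Ngn3+MafA samples against 0 to 5.27 CPM (log2 fold change 6.5 ± 1.19 SE, adjusted p = 0.00101). The calcium-dependent activator Cadps was at 4.28 to 53.8 CPM against 0 to 0.865 CPM (adjusted p = 0.000511). The complexin Cplx2 was at 17.2 to 115 CPM against 0.264 to 2.89 CPM (0.00165). The calcium sensor Syt7 was at 1.97 to 25.5 CPM against 0 to 0.486 CPM (0.000546). The vesicle protein Syp was at 0.764 to 34.5 CPM against 0 to 0.461 CPM (0.00203). Syt13, known in endocrine precursors, was at 65.7 to 904 CPM against 0.264 to 15.2 CPM (0.00492) and was lost without WT MafA replicate 1 or 2 (adjusted p = 0.0822 and 0.0818). The vesicle GTPase gene Rab3c (0.00191) was lost without WT MafA replicate 1 (adjusted p = 0.0511). The Rab effector Rph3al (0.00341) was lost without WT MafA replicate 2 (adjusted p = 0.0611). The granule docking protein Sytl4 (0.0241) was lost without 6SA Ngn3+MafA replicate 2 or WT MafA replicate 1 (adjusted p = 0.0505 and 0.211). The synaptotagmin Syt4 (0.0498) was lost when any 1 of 9 of the 11 samples was left out (adjusted p = 0.0664 to 0.246). Syt4 was also lost with DESeq2 (0.156), the newer method (0.0794) and the first technical repeat alone (0.118), and Sytl4 with the last of these (0.0958). The general SNAREs Stx1a and Vamp2 were at 7.33 to 125 CPM against 6.48 to 21.7 CPM and 19.2 to 34.5 CPM against 13.3 to 19.2 CPM (adjusted p = 0.112 and 0.115). Stx1a was called with the block (0.00579, with 0.000175 to 0.369 over the alternatives).

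Of 15 channel genes tested, 9 were called higher and none lower (13 with the block), with a median log2 fold change of 5.69, or 3.70 with the 2 members without counts in the MafA samples set to the bound of 3 counts per sample, and 5 were kept with every sample left out. These 5 were the calcium channel subunits Cacna1d, at 1.68 to 27.1 CPM against 0 to 0.231 CPM (adjusted p = 0.00136), and Cacna2d1, at 46.8 to 292 CPM against 7.07 to 19.9 CPM (8.19e-05), and the potassium channels Kcnk16, Kcnh6 and Kcnma1, at 1.38 to 72.9 CPM against 0 to 0.0576 CPM (3.36e-05), 2.14 to 54.9 CPM against 0 to 0.308 CPM (0.00014) and 1.97 to 45.0 CPM against 0 to 0.162 CPM (3.59e-05). Abcc8, the sulfonylurea receptor of the KATP channel, was at 147, 45.6 and 22.7 CPM in the WT and 335, 157.5 and 10.5 CPM in the 6SA Ngn3+MafA samples against 0 to 1.44 CPM (adjusted p = 0.00214), and was lost without WT MafA replicate 1 (adjusted p = 0.0552). Its pore subunit Kcnj11 was at 2.74, 1.56 and 0 CPM and 3.18, 0.104 and 0 CPM, with 0 counts in both passage 5 and in all MafA samples (adjusted p = 0.092, 0.0179 with the block and 4.25e-27 to 0.374 over the alternatives). The calcium channel gene Cacna1c (0.00561) was lost without WT MafA replicate 1 or 2 (adjusted p = 0.0872 and 0.0721). Its low-voltage relative Cacna1h (0.032) was lost when any 1 of 7 of the 11 samples was left out (adjusted p = 0.0529 to 0.215). The sodium channel gene Scn9a (0.0384) was lost when any 1 of 9 of the 11 samples was left out (adjusted p = 0.0525 to 0.21), and also with DESeq2 (0.145), the newer method (0.0864) and the first technical repeat alone (0.142).

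Genes typical of single islet cell types were mixed. Of 9 α-cell genes tested, 3 were called higher, among them Gcg and Slc38a5, and 1 lower (Gc). Slc38a5, the glutamine transporter of α-cells, was at 203.5, 471 and 0.605 CPM in the WT and 1817, 887.5 and 200.3 CPM in the 6SA Ngn3+MafA samples against 0 to 0.231 CPM (log2 fold change 11.99 ± 1.90 SE, adjusted p = 0.000257), and WT replicate 3 was far below the others. Gc, the vitamin D-binding protein, was lower in all Ngn3+MafA samples, at 132 to 239 CPM against 1054 to 2578 CPM (log2 fold change -3.06 ± 0.51 SE, adjusted p = 0.00033). Ttr, transthyretin, was at 5.14 to 279.7 CPM against 10.8 to 44.4 CPM (adjusted p = 0.077, 0.0318 with the block and 0.000281 to 0.909 over the alternatives).

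Of 17 β-cell genes, 5 were called higher and none lower (8 with the block), among them Ffar1, Gjd2, Sytl4 and Ero1lb. Of the 5 calls, 1 was kept with every sample left out. Their list had a median log2 fold change of 1.80. The fatty acid receptor Ffar1 (0 to 8.87 CPM against 0, adjusted p = 0.013) was lost without WT MafA replicate 1 or 2 (adjusted p = 0.12 and 0.0771), and the gap junction gene Gjd2 (0 to 9.04 CPM against 0, 0.0204) without WT MafA replicate 1 or 2 (adjusted p = 0.147 and 0.102), with the newer method (0.0508) and with the first technical repeat alone (0.0554). Ero1lb, an oxidase that folds proinsulin (14.4 to 61.0 CPM against 2.25 to 17.9 CPM, 0.0333), was lost when any 1 of 8 of the 11 samples was left out (adjusted p = 0.051 to 0.251). Slc2a2, Ucn3 and Glp1r, which mark mature β-cells, were at 0 to 15.8 CPM against 0 to 0.807 CPM, 0 to 0.323 CPM against 0 CPM and 0 to 0.403 CPM against 0 to 2.37 CPM (adjusted p = 0.668, 1 and 1). G6pc2 was at 27.2, 0 and 0 CPM and 27.6, 0.311 and 0 CPM against 0 (adjusted p = 0.0649, 0.0017 with the block and 1.82e-12 to 1 over the alternatives), high in replicate 1 of each culture only.

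Of 6 δ-cell genes only Sst was called, and the ghrelin receptor Ghsr was at most 0.242 CPM. In the serotonin list 2 of 7 were called higher: Fev, described above, and Ddc, the decarboxylase that makes serotonin and dopamine, at 36.6, 52.7 and 0.302 CPM in the WT and 101, 77.1 and 42.9 CPM in the 6SA Ngn3+MafA samples against 0, which is at least 95.9-fold higher (adjusted p = 0.000513). Tph1, the rate-limiting enzyme, reached 213 CPM in 6SA replicate 1 and was at 0 in both passage 5 samples (adjusted p = 0.136). Of 20 genes of neuronal cytoskeleton and adhesion, 6 were called higher and none lower (13 with the block), with a median log2 fold change of 4.23, or 2.98 with the 3 members without counts in the MafA samples set to the bound of 3 counts per sample. The tubulin Tubb3 was at 24.8 to 388 CPM against 0 to 4.39 CPM (log2 fold change 5.83 ± 1.07 SE, adjusted p = 0.00101), and with the RNA-binding Elavl4 (0 to 17.9 CPM against 0 to 0.107 CPM, adjusted p = 0.00323) it was kept with every sample left out. The RNA-binding Celf3 (3.82 to 96.5 CPM against 0 to 2.65 CPM, 0.0159) was lost without WT MafA replicate 1 or 2 (adjusted p = 0.0932 and 0.147). The microtubule regulator Stmn3 (0.00302) was lost without WT MafA replicate 1 (adjusted p = 0.0569). Elavl3 (0.0313) was lost when any 1 of 6 of the 11 samples was left out (adjusted p = 0.0544 to 0.474). The microtubule-binding Dcx (0.038) was lost when any 1 of 9 of the 11 samples was left out (adjusted p = 0.0522 to 0.22). Rest, the repressor that keeps neuronal and endocrine genes off in epithelia, was at 38.5 to 104 CPM against 66.4 to 165 CPM (adjusted p = 0.792).

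**Figure D3:**
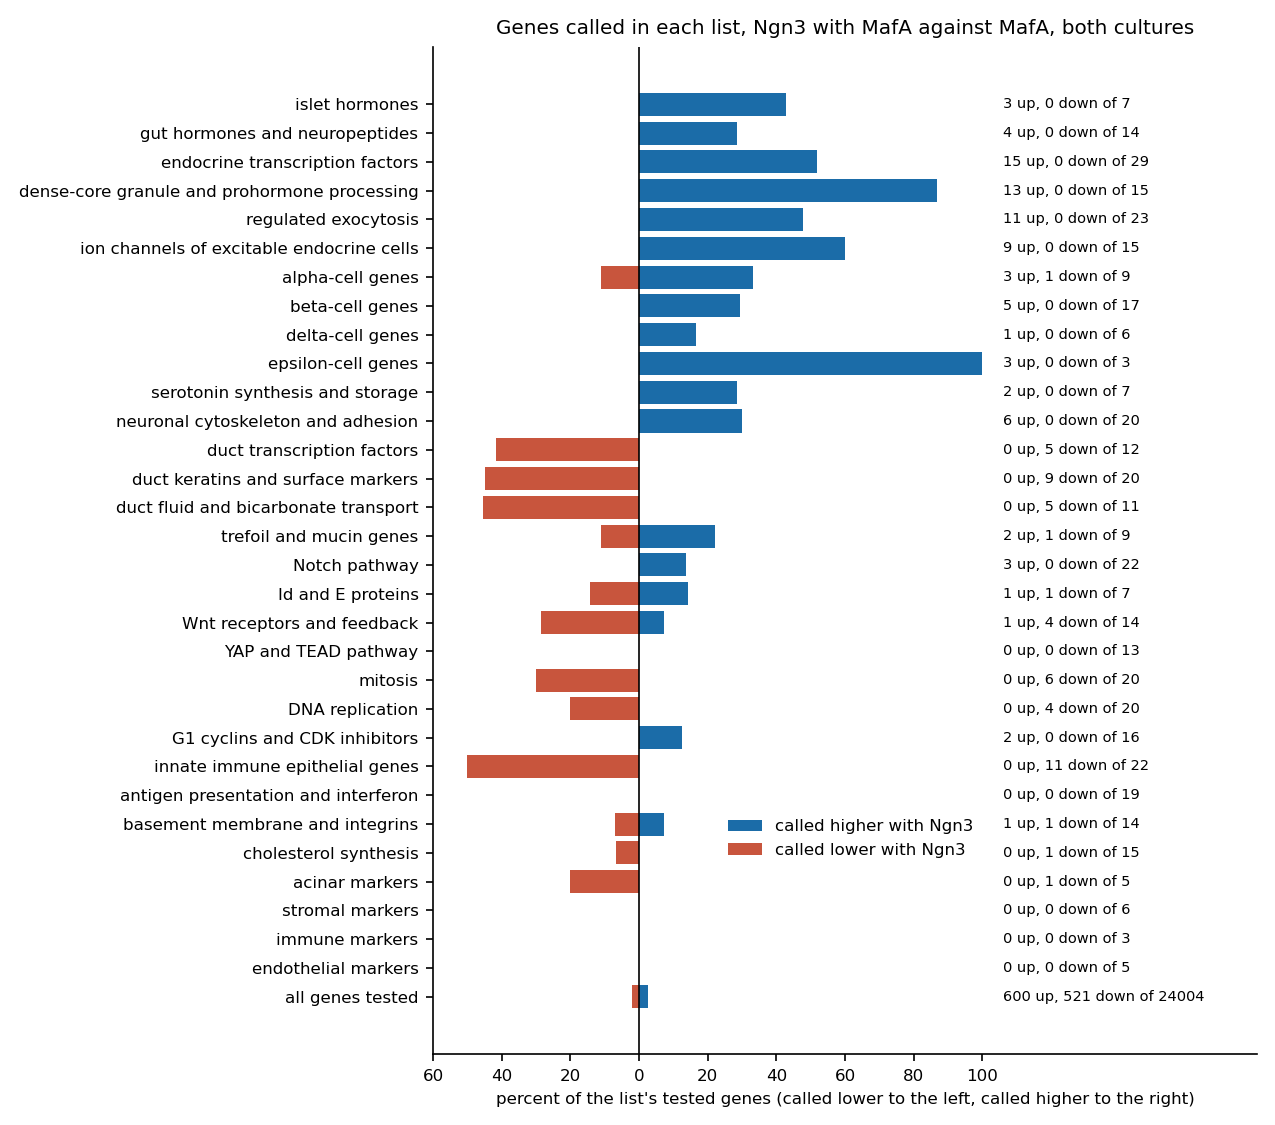
Bars give the percent of the tested genes of each list that were called higher (right, blue) or lower (left, red) in the Ngn3+MafA samples over both cultures, with the counts at the right and all genes tested at the bottom. The granule list has 13 of 15 genes higher, and the epithelial innate immune list has 11 of 22 genes lower, beside 2.5% and 2.17% of all genes. The lists were chosen with earlier results of these data known.

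The duct programme was lower in part. Of 12 duct transcription factors, 5 were called lower and none higher (6 with the replicate block), with a median log2 fold change of -1.23. In bulk pools, fewer cells of a type and less RNA per cell cannot be told apart. Ehf, an epithelial ETS factor, was at 167, 136.5 and 89.7 CPM in the WT and 175, 97.7 and 165.5 CPM in the 6SA Ngn3+MafA samples against 730.1 and 625.5 CPM and 930, 589 and 487 CPM in the MafA samples (log2 fold change -2.28 ± 0.32 SE, adjusted p = 4.22e-05). No Ngn3+MafA sample reached the level of any MafA sample. The zinc finger factor Glis3 was at 13.6 to 30.2 CPM against 68.4 to 116 CPM (adjusted p = 0.000709). The ETS factor Elf3 was at 25 to 133 CPM against 85.9 to 262 CPM (0.00363). The homeobox factor Onecut2 (365 to 700.5 CPM against 533 to 1357 CPM, 0.037) was lost when any 1 of 7 of the 11 samples was left out (adjusted p = 0.0667 to 0.311), and also without passage 5 (0.169), without the gene filter (0.0611), with the first technical repeat alone (0.116) and with the groups compared alone (0.0965). Sox9, the factor that holds the duct and progenitor state, was at 58.8, 111 and 164 CPM and 50.5, 171 and 181 CPM against 77.0 and 257 CPM and 66.7, 202 and 217 CPM and did not pass the test (adjusted p = 0.868). The ranges overlapped.

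Of 20 keratin and surface genes, 9 were called lower and none higher (13 with the block), and 6 were kept with every sample left out. The list summed to 16360 to 31830 CPM in the Ngn3+MafA samples and 64720 to 155900 CPM in the MafA samples, which do not overlap. Krt19, the keratin most used to mark ducts, was at 112, 42.5 and 36.8 CPM in the WT and 322, 22.6 and 132 CPM in the 6SA Ngn3+MafA samples against 1087 and 824 CPM and 934, 1186 and 1134 CPM (log2 fold change -3.34 ± 0.62 SE, adjusted p = 0.00121). The secreted chaperone Clu was at 13710, 9193 and 5930 CPM and 14460, 6845 and 11040 CPM against 46380 and 32760 CPM and 48390, 63620 and 73870 CPM (log2 fold change -2.28 ± 0.34 SE, adjusted p = 0.000108). The matrix protein Spp1 was at 829 to 3777 CPM against 14120 to 52240 CPM (adjusted p = 0.0023). The mucin Muc1 was at 53.2 to 158 CPM against 562 to 936 CPM (7.42e-05). The keratin Krt23 was at 1.25 to 24.2 CPM against 48.0 to 155 CPM (0.00954). The tight junction gene Cldn7 was at 102.5 to 252 CPM against 306 to 685 CPM (0.00204). The simple epithelial keratin Krt8 (570 to 1387 CPM against 1131 to 2026 CPM, 0.0216) was lost without 6SA Ngn3+MafA replicate 2, 6SA Ngn3+MafA replicate 3, WT MafA replicate 1 or WT Ngn3+MafA replicate 3 (adjusted p = 0.0611 to 0.18). The metalloproteinase Mmp7 (89.5 to 585.5 CPM against 1192 to 4815 CPM, 0.0402) was lost when any 1 of 8 of the 11 samples was left out (adjusted p = 0.0661 to 0.153). Krt20 (0.0224) was lost when any 1 of 7 of the 11 samples was left out (adjusted p = 0.0505 to 1) and with the first technical repeat alone (0.0625). With passage 2 samples alone Krt8 and Mmp7 were lost as well (adjusted p = 0.25 and 0.279), and Krt8 also with the groups compared alone (0.0782). Several epithelial genes did not pass the test. Krt7 was at 655 to 1838 CPM against 675 to 1421 CPM (adjusted p = 0.994). The cadherin Cdh1 was at 435 to 749 CPM against 412 to 715.5 CPM (1). The adhesion molecule Epcam was at 170.2 to 739.5 CPM against 133 to 2359 CPM (0.607). The surface marker Prom1 was at 717 to 2759 CPM against 600.5 to 1935 CPM (0.918).

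Fluid and bicarbonate transport, the function of the duct, showed 5 of 11 genes lower and none higher (6 lower with the block), with a median log2 fold change of -2.25 and summed levels of 459 to 645 CPM in the Ngn3+MafA samples and 1879 to 2354 CPM in the MafA samples. Car2, the cytosolic carbonic anhydrase, was at 58.6, 14.6 and 18 CPM in the WT and 60.4, 15.1 and 76.1 CPM in the 6SA Ngn3+MafA samples against 498 and 385 CPM and 415, 729 and 999.6 CPM (log2 fold change -3.84 ± 0.52 SE, adjusted p = 3.16e-05). The bicarbonate cotransporter Slc4a4 was at 74.0, 65.0 and 54.3 CPM and 81.1, 95.1 and 86.8 CPM against 315 and 549 CPM and 318, 365 and 206 CPM (log2 fold change -2.25 ± 0.39 SE, adjusted p = 0.000637). The potassium channel Kcnn4 was at 1.85 to 14.4 CPM against 69.2 to 219.6 CPM (adjusted p = 0.00906), a call lost with passage 2 samples alone (0.0703). The sodium, potassium and chloride cotransporter Slc12a2 (86.7 to 186 CPM against 331 to 797 CPM, 0.00524) was lost without WT MafA replicate 2 (adjusted p = 0.0743). The membrane carbonic anhydrase Car9 (6.54 to 129 CPM against 97.5 to 375 CPM, 0.0155) was lost without WT MafA replicate 1 (adjusted p = 0.101) and with passage 2 samples alone (0.133). The chloride channels Cftr and Ano1 were at 0 to 7.64 CPM against 0.791 to 12.6 CPM and 107 to 196 CPM against 78.6 to 436 CPM (adjusted p = 0.607 and 0.538). Among 9 trefoil and mucin genes, Tff3, a peptide of gut goblet cells, was higher at 39.9, 50.2 and 20.3 CPM in the WT and 47.0, 62.4 and 80.2 CPM in the 6SA samples against 0 to 0.617 CPM (adjusted p = 1.9e-05), while Muc20 was lower at 0.151 to 13.9 CPM against 24.0 to 64.5 CPM (0.000644). Tff2 (2.70 to 51.4 CPM against 2.14 to 5.01 CPM, 0.0359) was called higher and was lost when any 1 of 7 of the 11 samples was left out (adjusted p = 0.0541 to 0.206) and with the first technical repeat alone (0.535).

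Part of the antimicrobial and inflammatory genes of the epithelium were lower with Ngn3. Of 22 genes tested, 11 were called lower and none higher (14 with the replicate block), and all 11 calls were kept with every sample left out. The median log2 fold change was -2.77. The list summed to 1562 to 4140 CPM in the Ngn3+MafA samples and 17760 to 44390 CPM in the MafA samples. The neutrophil chemokine Cxcl5 was at 157, 203 and 67.9 CPM in the WT and 174, 104 and 164 CPM in the 6SA Ngn3+MafA samples against 5920 and 4610 CPM and 3682, 7606 and 3548 CPM (log2 fold change -5.14 ± 0.74 SE, adjusted p = 6.65e-05). Il1rn, the interleukin-1 receptor antagonist, was at 67.8, 9.26 and 21.8 CPM and 34.9, 21.3 and 50.6 CPM against 422 and 319 CPM and 512, 597 and 577 CPM (log2 fold change -3.73 ± 0.50 SE, adjusted p = 2.83e-05). Neither gene overlapped between groups. The bactericidal lectin Reg3b was at 0 to 3.36 CPM against 19.5 to 493 CPM (log2 fold change -10.36 ± 1.90 SE, adjusted p = 0.00118). Its close relative Reg3g was at 0 to 4.04 CPM against 0.791 to 379 CPM (adjusted p = 0.00503), 2 genes whose similar reads may not be fully separated by the counting. The acute-phase gene Saa3 was at 0 to 0.968 CPM against 9.23 to 52.2 CPM (0.00363). The neutrophil chemokine Cxcl2 was at 12.7 to 39.5 CPM against 76.3 to 475 CPM (0.00463). The scavenger protein Dmbt1 was at 2.12 to 372 CPM against 105 to 1352 CPM (0.00639). The NF-κB regulator Nfkbiz was at 92.6 to 157 CPM against 329.7 to 611 CPM (0.0028). The iron-binding Lcn2 (348 to 1903 CPM against 6450 to 34150 CPM, 0.00297), complement C3 (164 to 646 CPM against 1218 to 3305 CPM, 0.00859) and the lipopolysaccharide-binding Lbp (30.4 to 241 CPM against 382 to 646 CPM, 0.00377) were lost with passage 2 samples alone (0.0509, 0.0776 and 0.0594). None of 19 antigen presentation and interferon genes was called, and the class I gene H2-K1 was at 311 to 912 CPM against 271 to 522.5 CPM (adjusted p = 0.778). With the block 1 was called higher and 1 lower.

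Of 22 Notch pathway genes tested, 3 were called higher and none lower (6 with the block), and all 3 were kept with every sample left out. Dll4, a Notch ligand, was at 15.2, 18.5 and 4.84 CPM in the WT and 32.6, 34.8 and 2.44 CPM in the 6SA Ngn3+MafA samples against 0 counts without Ngn3, which is at least 33.5-fold higher (adjusted p = 0.00176). Dner, a non-canonical ligand, was at 20.4, 18.6 and 6.81 CPM and 53.1, 116 and 5.96 CPM against 0 to 0.107 CPM (adjusted p = 2.81e-05). Hes6, which antagonises Hes1, was at 134, 298 and 238 CPM and 249, 519.5 and 406 CPM against 66.6 and 41.0 CPM and 51.9, 110.5 and 71.7 CPM (log2 fold change 2.19 ± 0.30 SE, adjusted p = 3.52e-05). All 3 had separate groups. The ligand Dll1, the receptor genes Notch1 and Notch2 and the target Hes1 were at 18.4 to 43.6 CPM against 10.8 to 52.0 CPM, 41.5 to 76.0 CPM against 16.0 to 45.6 CPM, 34.4 to 87.7 CPM against 45.9 to 83.3 CPM and 25.2 to 325 CPM against 23.3 to 377 CPM (adjusted p = 1, 0.131, 1 and 1). With the block Notch1 was called higher as well, with an adjusted p of 0.0157, and 0.0157 to 0.369 over the alternatives.

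Id proteins hold E proteins, the partners of Ngn3, away from DNA. Id2 was lower, at 122, 114 and 113 CPM in the WT and 153, 118 and 213 CPM in the 6SA Ngn3+MafA samples against 541 and 402 CPM and 404.5, 645 and 1142 CPM (log2 fold change -2.10 ± 0.42 SE, adjusted p = 0.0025). Id4 was higher at 0.913 to 2.75 CPM against 0 to 0.162 CPM (adjusted p = 0.0169), a call lost without WT MafA replicate 1 or 2 (adjusted p = 0.163 and 0.0982) and with the first technical repeat alone (0.209). The E protein genes Tcf3, Tcf4 and Tcf12 were not called (adjusted p = 0.541, 0.816 and 0.561). Of 14 Wnt pathway genes, 4 were called lower and 1 higher (5 and 2 with the block). The stem cell receptor Lgr5 was at 9.68, 1.70 and 3.33 CPM and 34.6, 12.9 and 13.8 CPM against 69.6 and 69.1 CPM and 105, 41.3 and 14.0 CPM (log2 fold change -2.59 ± 0.49 SE, adjusted p = 0.00122). The feedback ligase Rnf43 was at 5.61 to 17.3 CPM against 44.3 to 153 CPM (adjusted p = 9.02e-05), while Rspo4, a secreted activator of Wnt signalling, was higher at 2.75 to 38.2 CPM against 0 to 0.308 CPM (1.01e-05). The R-spondin receptor Lgr4 (0.0297) was lost when any 1 of 7 of the 11 samples was left out (adjusted p = 0.0628 to 0.158). The Wnt-responsive DNA-binding factor Tcf7l2 (0.038) was lost when any 1 of 8 of the 11 samples was left out (adjusted p = 0.0583 to 0.128). With passage 2 samples alone Lgr4 and Tcf7l2 were lost as well (adjusted p = 0.189 and 0.113), and Tcf7l2 also without the gene filter (0.0989), with the first technical repeat alone (0.0967) and with the groups compared alone (0.121). Axin2, the usual readout of the pathway, was at 12 to 47.0 CPM against 22.7 to 61.1 CPM (adjusted p = 0.468). None of 13 YAP and TEAD genes was called, or 1 higher and 2 lower with the block. The target Ccn2 was at 21.4 to 325 CPM against 166 to 470.1 CPM (adjusted p = 0.309, 0.0135 with the block and 2.65e-05 to 0.494 over the alternatives).

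Mitosis genes were lower in part and unevenly so. Of 20 tested, 6 were called lower and none higher (10 with the block), with a median log2 fold change of -3.24, but only the cyclin Ccnb1 was kept with every sample left out. Summed levels were 22.4 to 189 CPM in the Ngn3+MafA samples and 80.7 to 617 CPM in the MafA samples. Ccnb1 was at 0.242, 0 and 0 CPM in the WT and 0.489, 0.934 and 0.306 CPM in the 6SA Ngn3+MafA samples against 13.8 and 14.5 CPM and 3.86, 13.9 and 0 CPM (log2 fold change -5.14 ± 1.23 SE, adjusted p = 0.0111). Top2a, the topoisomerase of dividing cells, was at 1.37, 0.522 and 4.84 CPM and 2.20, 15.1 and 3.82 CPM against 82.6 and 134.5 CPM and 23.4, 82.7 and 25 CPM (adjusted p = 0.0234), without overlap, and was lost when any 1 of 6 of the 11 samples was left out (adjusted p = 0.0595 to 0.0748). Mki67, the Ki-67 gene, was at 1.53, 4.56 and 4.24 CPM and 6.11, 57.6 and 1.07 CPM against 62.7 and 73.4 CPM and 16.2, 60.3 and 0 CPM and did not pass the test (adjusted p = 0.417). The passage 5 MafA sample was at 0 for Mki67 and Ccnb1 and at 25 CPM for Top2a. The mitotic kinase Plk1 (0.0216) was lost without 6SA MafA replicate 2, 6SA Ngn3+MafA replicate 1, 6SA Ngn3+MafA replicate 2, WT MafA replicate 1 or WT Ngn3+MafA replicate 1 (adjusted p = 0.0511 to 0.209). Birc5, which encodes survivin (0.0363), was lost when any 1 of 8 of the 11 samples was left out (adjusted p = 0.0787 to 0.15). The cyclin Ccnb2 (0.0376) was lost when any 1 of 8 of the 11 samples was left out (adjusted p = 0.0594 to 0.111). The spindle protein Nusap1 (0.0407) was lost when any 1 of 9 of the 11 samples was left out (adjusted p = 0.0517 to 0.123). Birc5 and Nusap1 were also lost with passage 2 samples alone (adjusted p = 0.06 and 0.0623), and Plk1 with the first technical repeat alone (0.0659).

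Of 20 DNA replication genes, 4 were called lower (6 with the block). The helicase subunit Mcm5 was at 3.21 to 12.4 CPM against 12.7 to 72.9 CPM (log2 fold change -2.65 ± 0.50 SE, adjusted p = 0.00124). The polymerase Pole was at 0 to 2.80 CPM against 10.8 to 22.2 CPM (adjusted p = 0.011), and both were kept with every sample left out. The helicase cofactor Cdc45 (0.0346) was lost when any 1 of 8 of the 11 samples was left out (adjusted p = 0.055 to 0.192). The polymerase Pola1 (0.027) was lost when any 1 of 7 of the 11 samples was left out (adjusted p = 0.0571 to 0.112). With passage 2 samples alone Cdc45 and Pola1 were lost as well (adjusted p = 0.0661 and 0.0565). Of 16 G1 regulators, 2 were called higher. The CDK inhibitor Cdkn1a was at 1419, 961 and 1186 CPM in the WT and 1319, 1079 and 905 CPM in the 6SA Ngn3+MafA samples against 573 and 369 CPM and 440.5, 378.5 and 1016 CPM (log2 fold change 1.09 ± 0.30 SE, adjusted p = 0.032), and was lost when any 1 of 8 of the 11 samples was left out (adjusted p = 0.0518 to 0.182) and with the first technical repeat alone (0.0568). Rb1, the retinoblastoma gene, was at 20.9 to 63.5 CPM against 6.85 to 17.3 CPM (adjusted p = 0.0276) and was lost without 6SA MafA replicate 3, 6SA Ngn3+MafA replicate 2, WT MafA replicate 1 or WT Ngn3+MafA replicate 2 (adjusted p = 0.0593 to 0.223), and with the groups compared alone (0.0603). Of 14 basement membrane and integrin genes (1 higher and 1 lower, or 1 and 2 with the block), the collagen Col18a1 was higher at 1603, 906 and 616 CPM in the WT and 1056, 1015 and 1045 CPM in the 6SA samples against 183 and 74.0 CPM and 244, 56.7 and 58.8 CPM (adjusted p = 0.0223), lost without WT MafA replicate 1 or 2 (adjusted p = 0.109 and 0.172), and the collagen receptor Itga2 was lower at 16.2 to 43.3 CPM against 91.0 to 130.2 CPM (0.00591). Of 15 cholesterol synthesis genes only the synthase Hmgcs1 was called (51.9 to 173 CPM against 88.6 to 251.5 CPM, 0.0215), and it was lost when any 1 of 6 of the 11 samples was left out (adjusted p = 0.0528 to 0.121), with passage 2 samples alone (0.0596) and with the first technical repeat alone (0.169).

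**Figure D4:**
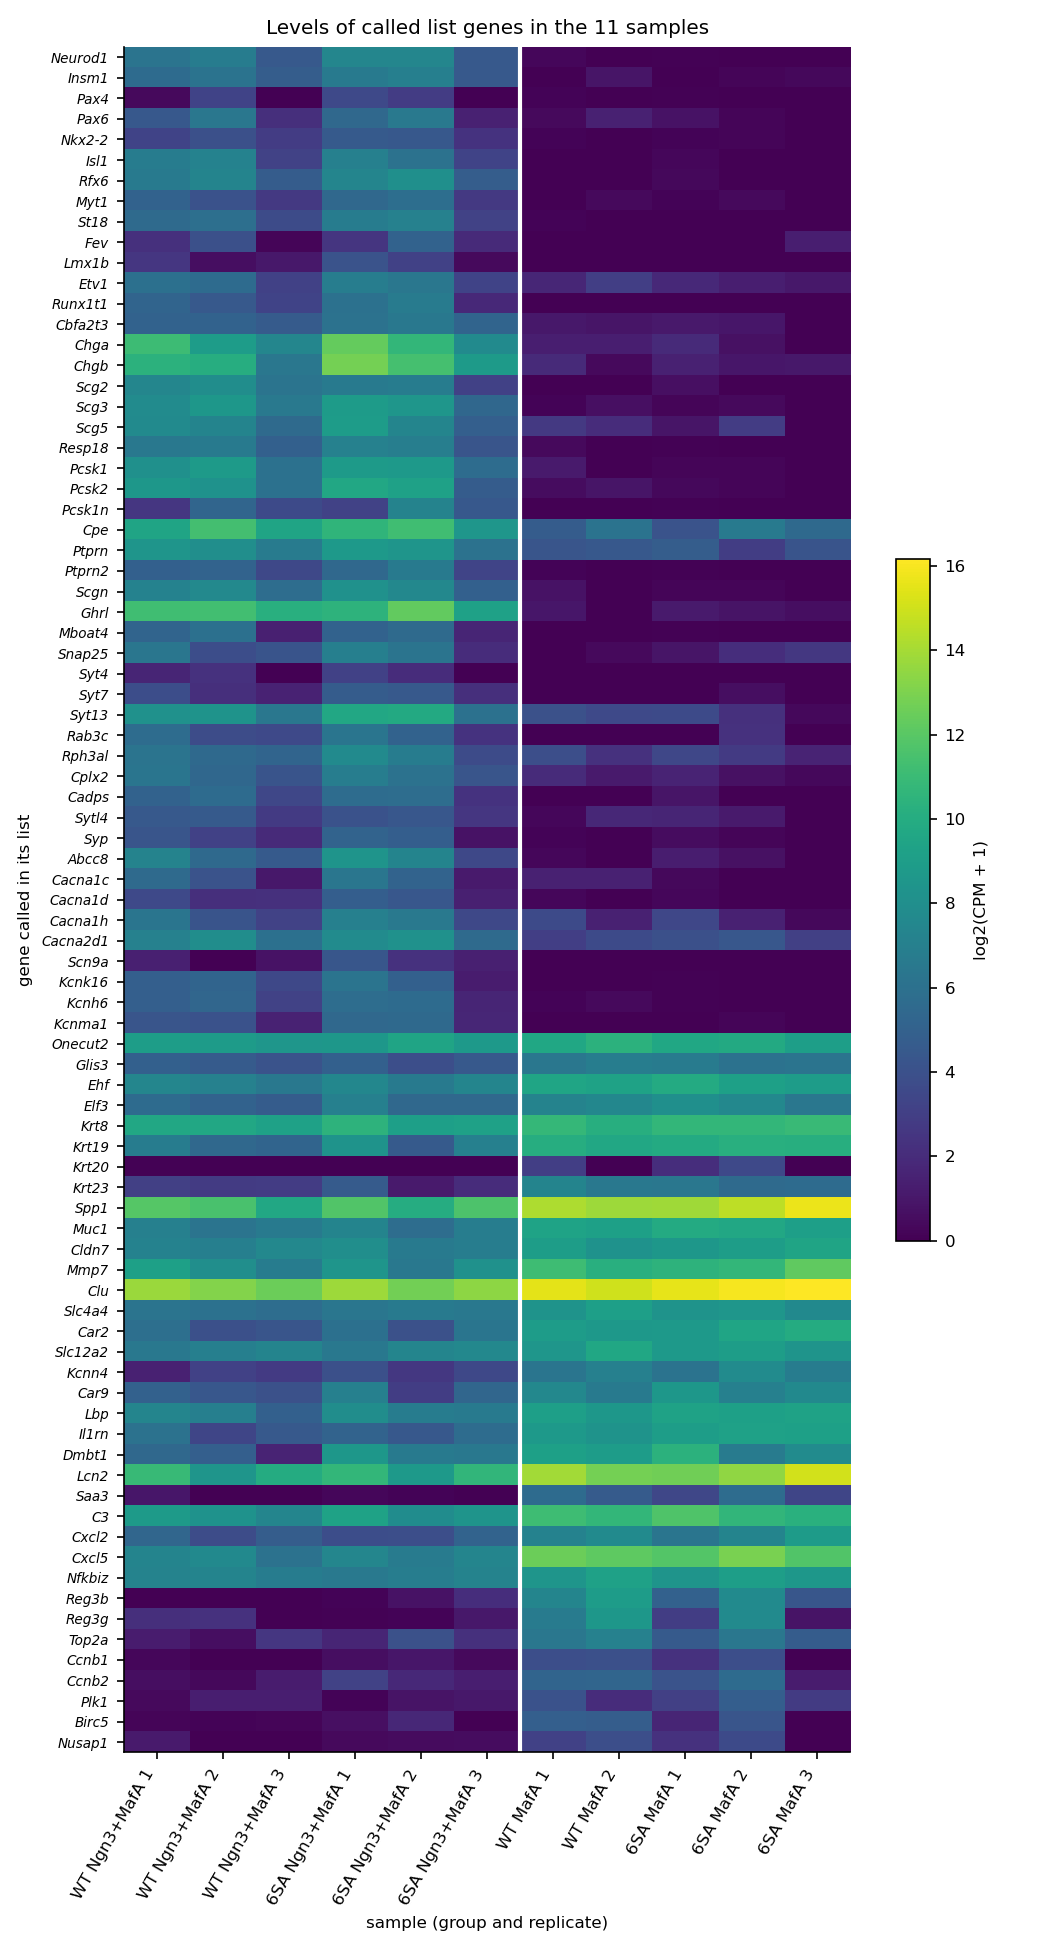
Colour gives log2(CPM + 1) of called genes of selected lists (rows) in each of the 11 samples (columns), Ngn3+MafA samples left and MafA samples right of the white line. The endocrine rows at the top are mostly paler in replicates 1 and 2 than in replicate 3 of the Ngn3+MafA groups and are mostly dark in the MafA samples, and the duct, defence and mitosis rows below are mostly paler in the MafA samples.

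The effect of adding Ngn3 could also be taken in each culture alone, and endocrine genes were called in both. With wild-type Ngn3, 159 genes were called (0.662%), 74 higher (0.308%) and 85 lower (0.354%), and with 6SA Ngn3 377 were called (1.57%), 280 higher (1.17%) and 97 lower (0.404%). The block raised these counts to 605 and 923. With passage 2 samples alone, which WT MafA has throughout, the WT comparison gave 178 higher and 50 lower and the 6SA comparison 307 higher and 66 lower. The genes called in both cultures numbered 105, of the 159 with wild-type and the 377 with 6SA Ngn3, and all 105 had the same direction. The WT comparison rested on 2 MafA samples, and without replicate 1 or 2 of that group its calls fell to 10 and 7, of which 0 and 1 were higher. They fell to 44 without WT Ngn3+MafA replicate 2 and to 92 without replicate 3, and in the 6SA comparison to 219, 189 and 182 without MafA replicate 1, 2 or 3 and to 196 without 6SA Ngn3+MafA replicate 2. The granule list had 10 members called higher in WT and 12 in 6SA cultures, the endocrine factors 9 and 12, exocytosis genes 2 and 7 and channels 3 and 7. Of the epithelial defence list 4 were called lower in WT and 2 in 6SA cultures, and of the duct keratin list 3 and 4. Ghrl had a log2 fold change of 11.61 in WT (adjusted p = 0.00433) and 11.23 in 6SA cultures (0.000182), and Chga one of 9.19 (0.0203) and 10.67 (0.000591). Sst was called in 6SA cultures (9.28, 0.0311) and not in WT (6.53, 0.35), and Gal, Cartpt, Slc38a5 and Ddc were likewise called only in 6SA cultures, with adjusted p of 0.000924 to 0.00728 there and 0.0595 to 0.365 in WT cultures. None of these differed between cultures by the test of the difference (adjusted p = 1).

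Over all 24004 genes, the effect of 6SA Ngn3 minus that of wild-type Ngn3 beside MafA passed the edgeR threshold in 0 genes (0%), with 717 at an unadjusted p under 0.05. DESeq2 called 11 and edgeR without the gene filter 58. Neurog3 itself averaged 99.6 ± 98.3 CPM with WT and 73.6 ± 55.1 CPM with 6SA Ngn3 (SD, n = 3 each).

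Within the Ngn3+MafA samples, the endocrine genes varied with passage. In 316 of the 600 genes called higher (52.7%), both passage 5 samples lay below all 4 samples at passage 2, against 2437 of all 24004 genes tested (10.2%) and 49 of the 521 genes called lower (9.4%). The reverse order was found in 18 (3%) of the genes called higher and 2188 (9.12%) of all genes. The share was 12 of 15 (80%) for the endocrine factors called higher, 11 of 13 (84.6%) for the granule genes, 10 of 11 (90.9%) for exocytosis and 7 of 9 (77.8%) for channels. Neurog3, whose reads may come from the vector, followed the same order, at 24.9 and 32.7 CPM at passage 5 and 53.6 to 212 CPM at passage 2. Passage 5 and replicate 3 cannot be told apart here. Mitochondrial counts made up 8.80% and 10.7% of gene counts in the Ngn3+MafA libraries at passage 5. At passage 2 they made up 2.76% to 6.28%, apart from 14.0% in the second technical repeat of 6SA replicate 2. The part of this difference in the order of levels was not tested. With passage 2 samples alone, 1115 genes were called over both cultures, 747 higher and 368 lower, 862 of them among the 1121.

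The response to Ngn3 beside MafA was compared with that beside Pdx1 (Ngn3+Pdx1 against Pdx1, 10 samples) and beside Pdx1 and MafA together (Ngn3+Pdx1+MafA against Pdx1+MafA, 11 samples), which use other samples. The lowest, median and highest level of Ghrl were 597, 1895 and 4934 CPM in the Ngn3+MafA samples, 221, 1709 and 2558 CPM with Ngn3 and Pdx1 and 10.8, 481 and 3053 CPM with all 3 factors. Those of Mboat4 were 1.66, 34.4 and 62.1 CPM, 2.70, 8.57 and 51.0 CPM and 0.339, 2.08 and 5.98 CPM. For both genes the ranges overlapped, and the difference of the effect beside MafA from that beside Pdx1 (adjusted p = 1 for each) or beside Pdx1 and MafA (Ghrl 0.538, Mboat4 1) did not pass the test. Sst reached 4.54, 328.5 and 3718 CPM in the Ngn3+MafA samples, 19.0, 6067 and 13800 CPM with Ngn3 and Pdx1 and 1605, 13330 and 30700 CPM with all 3 (adjusted p of the differences 1 and 0.715). Gcg was above 0 in 3 of the 6 Ngn3+MafA samples, at most 0.338 CPM in every other combination and at 0 in all 5 samples with the 3 factors (1 and 0.564). Ins1 was above 0 in 4 of the 5 samples with the 3 factors, at up to 153 CPM, and at most 0.698 CPM with Ngn3 and Pdx1. The median of Neurog3 was 58.1 CPM with MafA, 38.5 CPM with Pdx1 and 167 CPM with both, with overlapping ranges.

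Across all genes, the effect of Ngn3 beside MafA minus that beside Pdx1 passed the edgeR threshold in 0 of 24004 genes (0%), with 820 at an unadjusted p under 0.05, 25 called by DESeq2 and 126 without the gene filter. Minus the effect beside Pdx1 and MafA, 12 genes passed (0.05%), with 2244 at an unadjusted p under 0.05, 62 with the block and 349 by DESeq2. The count was 300 without WT Ngn3+Pdx1+MafA replicate 3 and 0 without WT MafA replicate 1 or 2, 6SA MafA replicate 2, WT Ngn3+MafA replicate 2, any of the 3 6SA Ngn3+MafA replicates, WT Ngn3+Pdx1+MafA replicate 1, WT Pdx1+MafA replicate 2 or 3, or 6SA Pdx1+MafA replicate 2. Among the 10 with the lowest adjusted p, Cbs, the cystathionine β-synthase that makes hydrogen sulfide (chr17:31608894-31637238), was higher with Ngn3 beside MafA, at 170.3 to 492 CPM against 15.3 to 47.7 CPM (log2 3.38, adjusted p = 0.00101), and at 5.63 to 64.1 CPM against 27.3 to 75.2 CPM beside both factors (difference of log2 effects 4.24 ± 0.82 SE, adjusted p = 0.0437). Xpnpep2, an aminopeptidase, was at most 0.611 CPM in the Ngn3+MafA and 0.634 CPM in the MafA samples. It was at 16.6 to 86.3 CPM with the 3 factors against at most 0.174 CPM with Pdx1 and MafA (difference of log2 effects -10.53 ± 1.77 SE, adjusted p = 0.0364). With Ngn3 and Pdx1 it was at 0 to 36.8 CPM, against at most 0.112 CPM with Pdx1 alone. Syt8, a synaptotagmin, was at 0.302 to 13.3 CPM against 29 to 75.4 CPM beside MafA and at 0 to 1.33 CPM against 29.9 to 67.6 CPM beside both (difference of log2 effects 6.58 ± 1.12 SE, adjusted p = 0.0364). The iron carrier Trf was at 44.3 to 219 CPM against 193.5 to 456 CPM beside MafA and at 5.56 to 15.0 CPM against 110.3 to 535 CPM beside both. The scavenger protein Dmbt1 was at 2.12 to 372 CPM against 105 to 1352 CPM and at 0.146 to 2.43 CPM against 159 to 894 CPM, and Lbp at 30.4 to 241 CPM against 382 to 646 CPM and at 0.439 to 20.6 CPM against 382 to 502 CPM. In Syt8, Trf, Dmbt1 and Lbp the levels with Ngn3 were thus closer to those without it beside MafA than beside both factors. Trp53i13 and Fkbp9, a prolyl isomerase, were at 4.92 to 34.5 and 81.5 to 142 CPM in the Ngn3+MafA samples, and at 49.2 to 279 and 125 to 838 CPM with the 3 factors. Fam110c and Trim16 made up the 10. The 10 genes were called in 7 to 16 of the 31 settings tried.

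**Figure D5:**
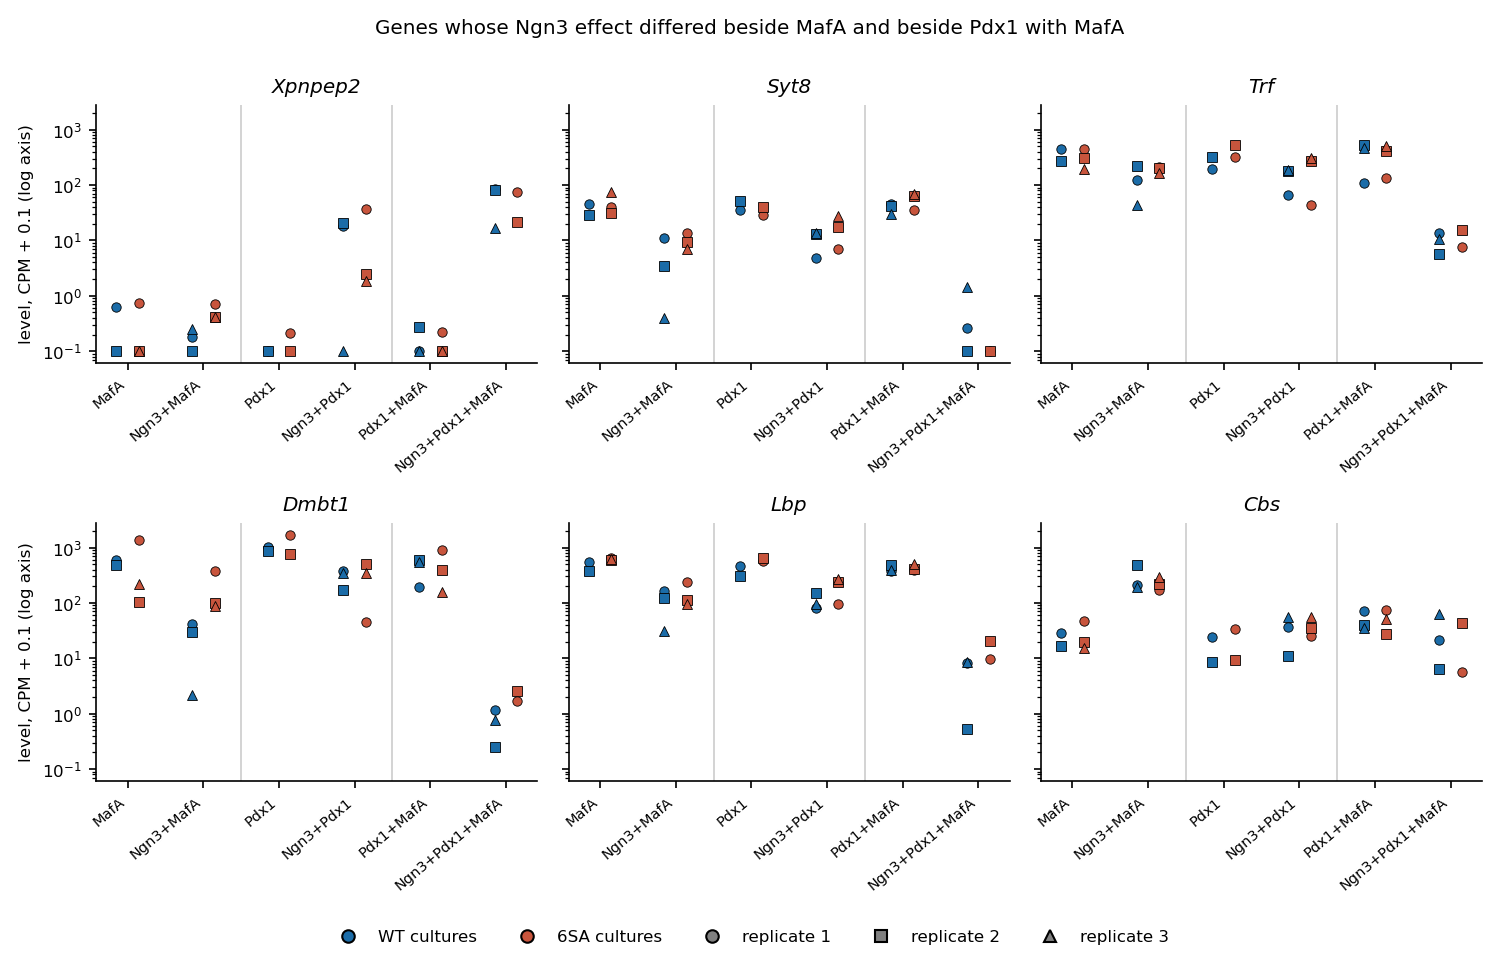
Levels in CPM + 0.1 on a log axis are drawn for 6 of the 10 genes in every sample of the 6 factor combinations, with colour for the culture and symbol for the replicate. Cbs is high in the 6 Ngn3+MafA samples. Xpnpep2 is high in the 5 samples with the 3 factors and in part of the Ngn3+Pdx1 samples. Syt8, Trf, Dmbt1 and Lbp have their lowest samples with the 3 factors.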

How the data were processed

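RNA of pools of 50 sorted cells was amplified by a Smart-seq2-type protocol, made into Nextera XT libraries and sequenced. According to the methods and the processing notes, the authors aligned reads with GSNAP to mm10/GRCm38, counted reads per Ensembl gene with HTSeq (0.5.3p3) and deposited raw counts, and the strand setting is not given in the sources used here. The table held 46078 genes and 92 spike-ins, of which 45143 genes matched a symbol, and every column matched a library. Gene positions came from the GENCODE annotation of GRCm38, and promoter windows from RefSeq (GRCm38.p6), 32851 without chromosome 18.

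Libraries with under 25% spike-in counts, over 1000000 counts on genes and over 10000 detected genes were kept, 58 of 61 in all and all 19 used here. In these 19, 2.76% to 14.4% of gene counts were mitochondrial. Rows that name no gene stayed out of library sizes; relative to all rows, 6.42% to 23.5% of reads were without a feature, 4.22% to 11.6% ambiguous and 16.1% to 29.4% not aligned. Technical repeats (chi-square per degree of freedom 10.01 to 76.1) were summed per replicate. The sources used here do not say whether they were separate pools of a sample.

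Genes counted in at least 5 libraries, whose log2(CPM+1) had a variance above 0.001, were tested with edgeR (4.0.16 in R 4.3.3) by the quasi-likelihood F test, with TMM scaling, a trended dispersion and all 12 groups in a single fit, and called at a Benjamini-Hochberg adjusted p under 0.05. Contrasts were Ngn3+MafA against MafA in WT, in 6SA and averaged over both cultures, and the differences of this effect between cultures and from the effect of Ngn3 beside Pdx1 or beside Pdx1 and MafA. In WT cultures the contrast took the mean of passages 2 and 5 against passage 2 alone. Each SE was back-calculated as the absolute log2 fold change divided by the square root of the F statistic. The alternatives were DESeq2 (1.42.0), RLE scaling, other gene filters, the newer quasi-likelihood method, the groups compared alone, passage 2 alone, the first technical repeat alone, each sample left out, and the replicate number as a block. The numbers were taken to pair the samples because the 5 pairs of same-numbered samples correlated at 0.234 to 0.441 in their deviations from the group means over 5000 genes. Differently numbered pairs of a culture correlated at -0.506 to 0.2525, so the ranges overlapped. With 2 WT MafA samples, the values of each WT Ngn3+MafA sample mirror each other by construction. Pairing between cultures, which the block also assumes, was not checked. On simulated counts for 24004 genes of the comparison over both cultures, with 200 changed, edgeR recovered 86% of 16-fold and 49% of 4-fold changes with 2.88% false calls, and DESeq2 92% and 63% with 17.1%. These counts were drawn once from the trended dispersion fitted by edgeR, without gene-specific dispersion or effects of replicate and passage. Only genes above a minimum level were changed. The simulation therefore cannot give the share of false calls in the real data or rank the 2 tools on them.

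The comparison and the gene lists were chosen with earlier results of these data known. Named genes were the 3 factors and islet hormones, called or defining list members, and the 12 genes higher and 12 lower with the lowest adjusted p and no overlap between groups. Added to these were up to 10 called genes with the lowest adjusted p in each difference of effects. Some list members counted in the totals are not reported here by name.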

Additional observations from a re-analysis of the deposited data

Results flagged for a closer look

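The effect of Ngn3 beside MafA differed from that beside Pdx1 and MafA in 12 genes, and the 10 with the lowest adjusted p are listed because the difference itself passed the edgeR test. As the difference of log2 effects, Xpnpep2 had -10.53, Trp53i13 -3.35 and Fkbp9 -2.43, while Syt8 had 6.58, Trf 3.99, Dmbt1 5.61, Lbp 3.42, Fam110c 3.19, Trim16 3.71 and Cbs 4.24 (adjusted p = 0.0364 to 0.0437). Only Cbs was called higher with Ngn3 beside MafA (3.38, adjusted p = 0.00101), and Syt8, Dmbt1 and Lbp were called lower (-2.61, -3.02 and -2.10), so for the other 6 the effect beside MafA itself did not pass the test (adjusted p = 0.221 to 1). Xpnpep2 had few counts in both MafA groups, and its fitted value depends on the prior count. No gene passed without either WT MafA replicate, and 0 to 300 passed with other single samples left out.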

How the results depend on the processing

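Sign changes over both cultures were checked for list members and other named genes only. No fold change of these genes that was called with or without an alternative changed sign under it. Over both cultures, 1121 calls became 1945 with DESeq2, 2077 without the gene filter and 2123 with the replicate block, and 515 to 1033 with a sample left out. In WT cultures, 159 became 670 with DESeq2, 883 without the filter, 605 with the block, 242 with the newer quasi-likelihood method and 942 with the groups compared alone, and 7 to 115 with a sample left out. In 6SA cultures, 377 became 1126, 1257, 923, 648 and 798 under the same settings, and 182 to 398 with a sample left out. For 6SA minus WT, 0 became 11 with DESeq2, 58 without the filter and 0 to 2 with a sample left out, and for beside MafA minus beside Pdx1, 0 became 25 and 126. For beside MafA minus beside Pdx1 and MafA, 12 became 349 with DESeq2, 587 without the filter, 62 with the block, 26 with the newer method, 119 with passage 2 alone, 6 with filterByExpr, 2 with the first technical repeat, 2 with the groups compared alone, and 0 to 300 with a sample left out. The cause of these changes was not tested. Of the 1945 DESeq2 calls 1104 were among the 1121, and of the 2077 without the filter 1069. The block turned no call of a gene named in this text other than those given beside their results. Of the values for single named genes, 8049 kept their side of the threshold, 259 fell below it and 264 passed it. Of the 8049, 226 values of 80 genes that were not called changed sign, among them the log2 fold changes of Ppy (3.44, and -0.68 without 6SA Ngn3+MafA replicate 2), Gip (3.35, and -1.83 without WT Ngn3+MafA replicate 1) and Pdx1 (-0.11, and 0.05 with the replicate block).

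WT MafA had 2 samples and none at passage 5. At 3 counts the limit was 0.34 CPM in an average Ngn3+MafA and 0.539 CPM in an average MafA sample, and levels below these rest on fewer counts. Technical repeats of a sample varied strongly.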

Other observations

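Outside the gene lists, several genes with large differences are named here, chosen after their values were seen. Among those higher with Ngn3 beside MafA were Cryba2, a crystallin gene that islet endocrine cells also express, at 58.1 to 1216 CPM against 0 to 1.23 CPM (log2 fold change 10.32 ± 1.41 SE, adjusted p = 3.38e-05), and Gad1, which makes the transmitter GABA, at 5.29 to 214 CPM against 0 to 0.162 CPM (adjusted p = 0.000301). The short-chain fatty acid receptor Ffar2 was at 7.11 to 237 CPM against 0 to 0.173 CPM (adjusted p = 1.87e-05) and Cd177, a surface protein known from neutrophils, at 3.21 to 532 CPM against 0 to 0.749 CPM (log2 fold change 11.68 ± 1.72 SE, adjusted p = 9.53e-05).

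Other genes outside the lists, likewise chosen after their values were seen, were lower. The GABA receptor subunit Gabrp was at 20.2, 69.5 and 44.5 CPM in the WT and 73.3, 54.1 and 42.5 CPM in the 6SA Ngn3+MafA samples against 1421 and 1294 CPM and 1758, 1439 and 1019 CPM in the MafA samples (log2 fold change -4.78 ± 0.67 SE, adjusted p = 4.57e-05), without overlap. Lactoferrin, Ltf, was at 1.36 to 188 CPM against 334 to 1246 CPM (adjusted p = 0.00101), the inducible cyclooxygenase Ptgs2 at 3.53 to 18.8 CPM against 81.7 to 287 CPM (0.000511), and the collectin Sftpd, which binds microbial sugars, at 5.61 to 86.3 CPM against 233.5 to 648 CPM (0.00094). The hydrogen peroxide-producing oxidase Duox2 and its maturation factor Duoxa2, which lie next to each other in the genome, were at 0 to 10.1 CPM against 27.2 to 69.7 CPM (0.000117) and 0 to 5.09 CPM against 30.3 to 107 CPM (0.00193).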
